A study of Mus musculus with 36 samples.

Results

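Open chromatin at Mef2a, Mef2c and Mef2d, the MEF2 genes of the mouse genome studied here, was followed in nuclei of the left ventricle after myocardial infarction. The members are all deposited ATAC-seq regions that overlap a fixed mm9 window around each gene: chr7:74340000-74580000 for Mef2a (240 kb), chr13:83580000-83860000 for Mef2c (280 kb) and chr3:87910000-88010000 for Mef2d (100 kb). The rule found 90 of 122759 listed regions, 26 at Mef2a, 38 at Mef2c and 26 at Mef2d, counted over 3 days. ATAC-seq uses a transposase that inserts sequencing adapters into accessible DNA, and a tag is a sequenced fragment or read end assigned to a region. All animals were FVB/N mice. There were 3 border zone libraries, from the surviving muscle beside the infarct, and 3 libraries from the left ventricle of sham-operated mice, with 1 of each condition on days 4, 7 and 14.

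Per the labels' protocols, the mice of day 4, operated for infarction or sham alike, carried Cdh5-Cre and Sun1-sfGFP, and both a GFP sort of nuclei and a PCM1 pulldown for cardiomyocytes are named. How these steps were combined is not clear from the labels, so which nuclei the day 4 values describe is not certain. The Cdh5 promoter is known for activity in endothelial cells, and PCM1 is a protein found around cardiomyocyte nuclei. In both conditions of days 7 and 14 the nuclei were labelled as sorted from Myh6-MerCrMer;nTnG mice, in which the cardiomyocyte promoter of Myh6 drives a Cre that needs tamoxifen. Tamoxifen was given at 20 mg/kg and 50000 nuclei were collected per sample. Day 4 and the later days therefore differ in mice and in isolation of nuclei, and no value was compared between days by a test. The sources used here give neither the age of the animals nor how many entered a library. The cardiomyocyte label was not checked against marker genes, because no mm9 annotation was used here, and for the same reason regions are not assigned to promoters, exons or introns. Whether a window also holds other genes was not checked. A region or locus of a gene therefore means one in the window of that gene. In a pool of nuclei, fewer nuclei with an open site and fewer open sites in each nucleus cannot be told apart.

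MEF2 proteins are MADS-box transcription factors that bind A/T-rich sites in the regulatory DNA of muscle genes. Class IIa histone deacetylases hold them in a repressed state, and calcium and stress kinases release them. In mice, Mef2c is needed for formation of the embryonic heart, Mef2a is a main MEF2 factor of the adult heart, and Mef2d takes part in the response of the adult heart to load.

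RefSeq promoters, 250 bases before to 50 after an annotated gene start on GRCm38.p6, were found for all 3 genes: 1 for Mef2a, 3 for Mef2c and 1 for Mef2d. They are of another build than the regions and were not placed against them. Both strands were searched for the MEF2 motif, the AP-1 motif TGANTCA, the GATA motif AGATAA and the CArG motif of SRF. The 2 promoters with a match are shown, since one holds the motif of the family's own proteins. The match is in capitals, 5′ to 3′ on the gene's strand.
Mef2a, chromosome 7, minus strand: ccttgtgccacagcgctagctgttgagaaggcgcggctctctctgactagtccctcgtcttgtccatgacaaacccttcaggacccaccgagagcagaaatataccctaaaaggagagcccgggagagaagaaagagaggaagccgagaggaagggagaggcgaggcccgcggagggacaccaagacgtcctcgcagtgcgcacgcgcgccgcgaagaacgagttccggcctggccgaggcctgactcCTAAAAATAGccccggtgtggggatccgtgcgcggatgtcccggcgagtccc
Mef2c, promoter 3 of 3, chromosome 13, plus strand: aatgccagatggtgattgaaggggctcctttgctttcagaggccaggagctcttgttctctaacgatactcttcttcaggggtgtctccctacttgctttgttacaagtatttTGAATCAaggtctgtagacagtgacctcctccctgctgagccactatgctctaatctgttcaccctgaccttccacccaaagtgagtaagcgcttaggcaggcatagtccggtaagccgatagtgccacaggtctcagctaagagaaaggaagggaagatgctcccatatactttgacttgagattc
The Mef2a match is to the MEF2 motif, at bases 249 to 258, across the annotated start. This motif is held by 3.19% of all 32851 RefSeq promoters. The Mef2c match is to the AP-1 motif, at bases 114 to 120, which 7.81% of promoters hold. The GATA motif was in 11.2% and the CArG motif in 1.63% of all promoters, and neither was in those of the MEF2 genes.

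In listed values, chromatin at Mef2a and Mef2d carried fewer tags in the border zone than in sham on all 3 days. At Mef2c this held for day 4, though not clearly under another scaling, and the later days were near equal. Over the listed regions of Mef2a, border zone and sham had 1533 and 1796 tags on day 4, 554 and 915 on day 7, with 3924 and 4646 on day 14. Here and below, border zone tags are the listed values. In all lists but the non-differential one of day 4 these are mostly whole multiples of a few factors per day. They were read as scaled counts, and whether this scaling matches them to sham is not known. The fold of border zone over sham at Mef2a was 0.853 (0.797 to 0.914) on day 4, 0.605 (0.537 to 0.680) on day 7 and 0.845 (0.806 to 0.885) on day 14. The values in parentheses are 95% limits of the fold, taken from an exact binomial interval for the tags of both libraries, and cover counting error only. At Mef2d, border zone and sham had 1760 and 2014 tags on day 4, 1032 and 1466 on day 7, with 4990 and 5927 on day 14. Its fold was 0.874 (0.819 to 0.932) on day 4, 0.704 (0.644 to 0.769) on day 7 and 0.842 (0.808 to 0.877) on day 14. The folds of both genes were thus lowest on day 7 and stayed below 1 under every scaling of the border zone tags that was tried.

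At Mef2c, border zone and sham had 2129 and 2358 tags on day 4, 2462 and 2376 on day 7, with 5350 and 5419 on day 14. Its fold was 0.903 (0.851 to 0.958) on day 4, 1.04 (0.974 to 1.10) on day 7 and 0.987 (0.947 to 1.03) on day 14. On the later days its intervals held 1. With border zone tags scaled by 1 median factor per day, the fold of day 4 was 0.963 with an upper limit of 1.02. Its interval then held 1 on day 4 too. Under other scalings, with the median over regions or without differential regions the fold ran from 1.03 to 1.14 on day 7, whereas on day 14 it ran from 0.964 to 1.07 and so changed side. For all listed regions of a day together, the same ratio of summed tags was 0.931, 0.954 and 1.01 on days 4, 7 and 14. Mef2a and Mef2d lay below and Mef2c above this ratio on day 7, and all 3 genes lay below it on day 4, when it fell inside the intervals of Mef2c and Mef2d but above that of Mef2a. On day 14 it fell inside the interval of Mef2c and above those of Mef2a and Mef2d.

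The genes were compared with each other over the 3 days on the log2 scale. Mef2c exceeded Mef2a by a mean of 0.36 ± 0.37 (SD, n = 3 days) and Mef2d by 0.28 ± 0.26, in both pairs on 3 of 3 days. Mef2d exceeded Mef2a by 0.08 ± 0.12, on 2 of 3 days. In an exact two-sided sign-flip permutation test over the days, p was 0.25 for both differences with Mef2c, which is the smallest p that 3 days allow, and 0.5 for Mef2d against Mef2a (0.375, 0.375 and 0.5 after Benjamini-Hochberg adjustment over the 3 comparisons). No p under 0.05 could be reached in this design, so the test does not settle whether the genes differ.

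As a level, whole tags per kb of listed region, per 1000000 listed tags of the library, were used. Mef2a had 17.5, 17.6 and 22.2 in the border zone on days 4, 7 and 14, against 19.0, 27.9 and 26.7 in sham. Mef2c had 19.9, 35.1 and 22.3 in the border zone, against 20.5, 32.4 and 22.9 in sham. Mef2d had 21.3, 25.4 and 29.4 in the border zone, against 22.7, 34.5 and 35.4 in sham. Mef2a had the lowest level in every library but the sham library of day 14, where Mef2c was lowest, and Mef2d had the highest level in every library but the border zone library of day 7, where Mef2c was highest. The counting intervals overlapped for Mef2a and Mef2c in the border zone on day 14 and in sham on day 4, and for Mef2c and Mef2d in the border zone on day 4 and in sham on day 7. There was no replicate to set these levels against.

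**Figure D1:**
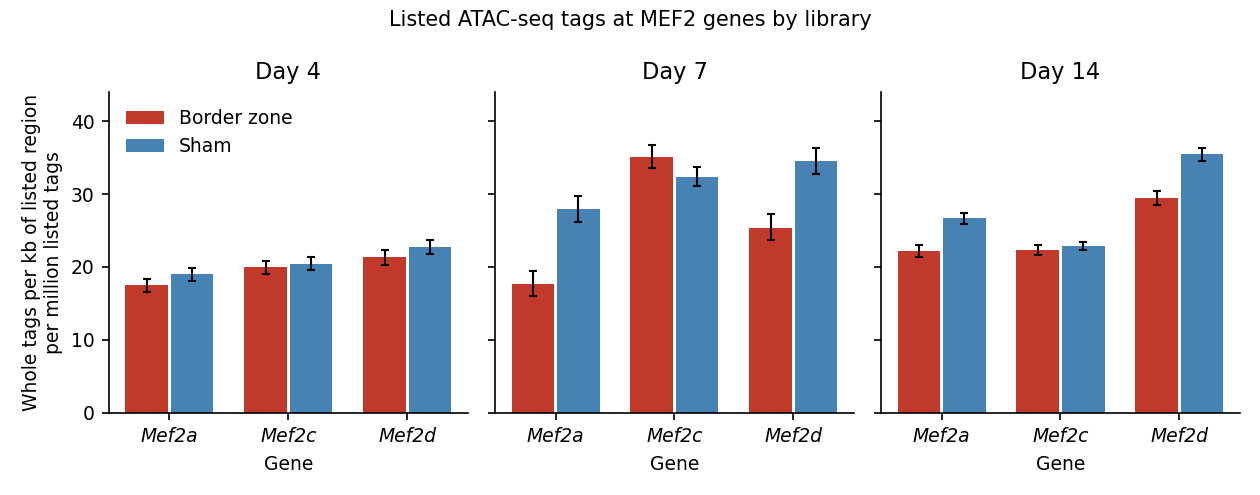
Whole ATAC-seq tags per kb of listed region and per 1000000 listed tags (linear axis from 0) at each gene in the border zone library (left bar, red) and the sham library (right bar, blue) of each day; error bars are exact 95% Poisson intervals, which cover counting error only. On day 7 Mef2a stood at 17.6 in the border zone and 27.9 in sham, whereas Mef2c stood at 35.1 and 32.4.

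The deposited lists sort the regions of a day into border zone-higher, sham-higher and not different. In the differential lists the smallest fold was 1.75, and the smallest tag number of the condition that was higher was 35, 50 and 150 on days 4, 7 and 14. Of the 90 MEF2 regions, 4 were border zone-higher, 13 sham-higher and 73 not different. On day 4, 7 of 36 regions were differential, beside 19.6% of all listed regions; 3 of the 36 were border zone-higher, where 12.2% of all listed regions were, and 4 were sham-higher (11.1%), where 7.37% were. On day 7, 7 of 27 were differential, beside 39.6% of all regions; 1 was border zone-higher, with 17.5% among all regions, and 6 were sham-higher (22.2%), close to the 22% of all regions. On day 14, 3 of 27 were differential, beside 20.2% of all regions; 0 were border zone-higher, with 13.4% among all regions, and 3 were sham-higher (11.1%), with 6.75%. The sham-higher share of day 7 was that of the background, and the sham-higher counts of the other days were 4 and 3 regions.

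Mef2a held 7 of the 13 sham-higher regions: 2 of its 10, 3 of 7 and 2 of 9 regions on days 4, 7 and 14. Of all listed regions 7.37%, 22% and 6.75% were sham-higher on these days. Counts this small were not tested against these shares. Mef2c held 1 on each day, of 15, 12 and 11 regions. Mef2d held 1 of 11, 2 of 8 and 0 of 7 on these days. The regions listed as border zone-higher were 1 of 10 at Mef2a and 2 of 11 at Mef2d on day 4, and 1 of 12 at Mef2c on day 7. Of all listed regions 12.2% were border zone-higher on day 4 and 17.5% on day 7. Of the 17 differential regions 16 were 1000 bp wide, and 6 adjoined a region of the same day that was not different. These were thus part of a wider accessible stretch. Sham tags were 1.79-fold to 3.05-fold higher in the sham-higher regions, and border zone tags were 1.76-fold to 2.20-fold higher in the border zone-higher ones.

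The median region had 209.5 tags over both libraries on day 4 at the MEF2 genes and 139 among all listed regions, 173 and 112 on day 7, with 661 and 374 on day 14. The MEF2 regions thus carried more tags than listed regions in general. Their median log2 ratio, border zone over sham, was -0.20 on day 4, where that of all regions was -0.09. It was -0.51 against -0.14 on day 7, and -0.22 against 0.03 on day 14. Border zone values were the lower ones in 26 of 36, 20 of 27 and 18 of 27 MEF2 regions, or 72.2%, 74.1% and 66.7%, where 56.4%, 55.6% and 48.2% of all regions were lower.

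**Figure D2:**
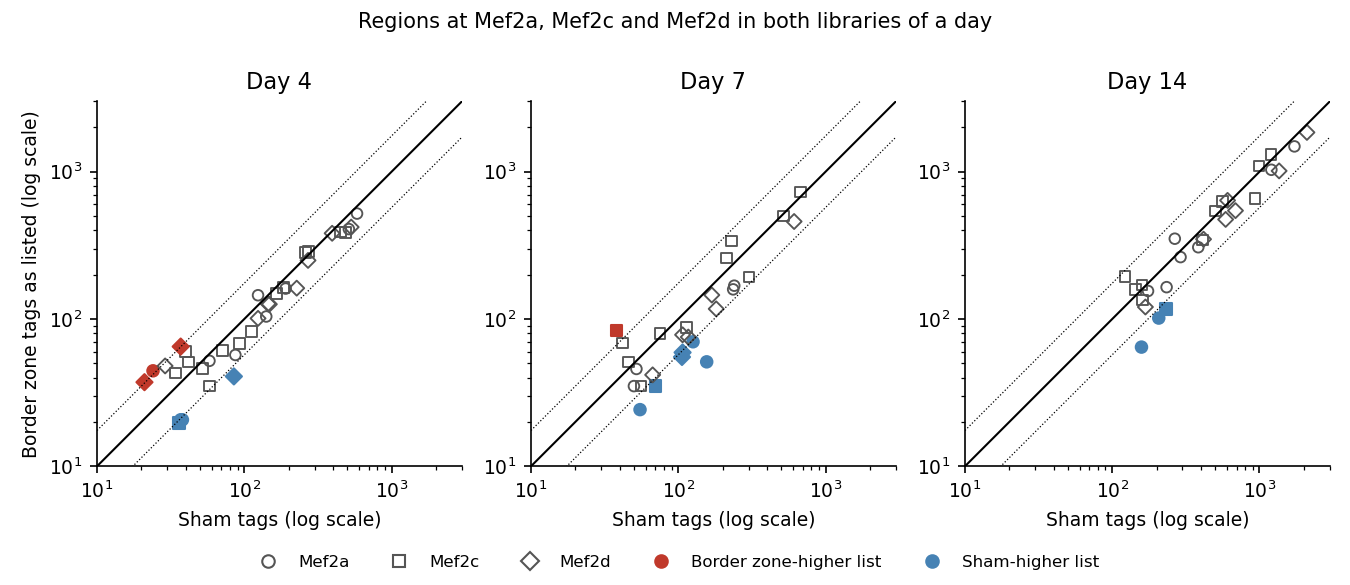
Border zone tags as listed against sham tags for each MEF2 region on days 4, 7 and 14 (both axes on a log scale); circles are Mef2a, squares Mef2c and diamonds Mef2d, filled red where listed as border zone-higher and blue where listed as sham-higher. The solid line marks equal values and the dotted lines a 1.75-fold difference; no region is red on day 14, and the sham-higher region farthest from the solid line is the Mef2a region of day 7 with 51.2 border zone and 156 sham tags.

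Across days, overlapping regions made up 39 loci, 11 at Mef2a, 18 at Mef2c and 10 at Mef2d. Of these, 20 were listed on all 3 days, 5 on 2 days and 14 on a single day, 9 of them on day 4. A locus missing from the lists of a day has no measured value on it. Coordinates of a locus are its full extent over the days, and the regions listed on a given day can cover less of it. Of the 20 loci listed on all days, 15 were lower in the border zone on every day, where 44.4% of all 19733 such loci were, 1 was higher on every day, where 12% were, and 4 were mixed. The 15 were 6 of 6 loci at Mef2a, 5 of 6 at Mef2d and 4 of 8 at Mef2c.

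At Mef2a the most tags lay at chr7:74373251-74376250, where border zone and sham had 520 and 583 tags on day 4, 238 and 366 on day 7, with 1486 and 1727 on day 14. The border zone was slightly lower on days 4 and 14, at 0.892-fold and 0.861-fold, and at 0.651-fold (0.541 to 0.782) on day 7. On that day the last 1000 bp of it were listed as sham-higher. The next locus, chr7:74379251-74381750, had 161 and 191 tags in border zone and sham on day 4, 51.2 and 156 on day 7, with 307 and 384 on day 14. Its fold of 0.328 (0.224 to 0.470) on day 7 was the lowest of any MEF2 locus on any day. On the other days the border zone was closer to sham, at 0.843-fold on day 4. This locus was listed over 2500 bp on day 4 and over 1500 bp on days 7 and 14. Beside it, chr7:74382251-74384250 had 104 and 141 tags on day 4, 24.2 and 55 on day 7, with 155 and 175 on day 14. It was thus sham-higher on day 7 too, at 0.441-fold (0.244 to 0.762), and at 0.738-fold and 0.885-fold on days 4 and 14. The centres of these neighbours lie 5.75 and 8.5 kb from that of the locus with the most tags.

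At the other end of the Mef2a window, chr7:74565751-74567750 had 408 and 513 tags in border zone and sham on day 4, 159 and 236 on day 7, with 1031 and 1204 on day 14, folds of 0.795, 0.673 and 0.856. Its neighbour chr7:74559251-74560250 was at 0.655-fold on day 4 and 0.703-fold on day 14, and chr7:74404251-74405250 at 0.897-fold, 0.881-fold and 0.905-fold. None of these 3 was listed as differential on any day. The remaining Mef2a calls came from loci listed on 1 or 2 days. On day 14, chr7:74534751-74535750 had 64.4 border zone and 158 sham tags, a fold of 0.408 (0.288 to 0.568), and appeared on no other day. On day 4, chr7:74432251-74433250 was border zone-higher with 44.5 border zone and 24 sham tags (1.85-fold, 1.10 to 3.19), and chr7:74462751-74463750 sham-higher with 20.7 border zone and 38 sham tags (0.544-fold). These calls of day 4 rest on few tags, with 24 and 38 tags in sham. A pair of Mef2a loci was listed on days 4 and 14 and went in opposite directions. At chr7:74387751-74389250, border zone and sham had 20.7 and 37 tags on day 4, a sham-higher call over the first 1000 bp alone. On day 14 they had 351 and 266 over 1500 bp (1.32-fold, 1.11 to 1.57). At chr7:74414751-74416250 they had 145 and 124 tags over 1500 bp on day 4. On day 14 its last 1000 bp had 101 and 207 (0.490-fold, 0.371 to 0.642), a sham-higher call. The stretches compared thus differ between the days at both loci.

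At Mef2d the most tags lay at chr3:87952251-87956250, with 421 border zone and 532 sham tags on day 4, 459 and 612 on day 7, with 1850 and 2100 on day 14. The border zone was at 0.791-fold (0.695 to 0.901) on day 4, 0.750-fold (0.655 to 0.858) on day 7 and 0.881-fold (0.822 to 0.944) on day 14, and the locus was listed as not different throughout. At chr3:87936751-87938250, border zone and sham had 382 and 395 tags on day 4, 172 and 287 on day 7, with 1013 and 1359 on day 14, which gave 0.967-fold, 0.601-fold and 0.746-fold. At chr3:87923751-87925250 they had 250 and 271, 101 and 174, and 544 and 687 tags on the same days, which gave 0.923-fold, 0.581-fold and 0.792-fold. Each of these held a sham-higher region of 1000 bp on day 7, and on day 4 their values were nearly equal.

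The Mef2d locus chr3:87969251-87970750 had 203 border zone and 312 sham tags on day 4, 75.4 and 117 on day 7, with 474 and 589 on day 14. It was the Mef2d locus lowest on day 4, at 0.650-fold (0.541 to 0.779), and its first 1000 bp had 40.8 border zone and 85 sham tags on that day, a sham-higher call. On days 7 and 14 it was at 0.645-fold and 0.805-fold, listed as not different. The loci chr3:87965751-87966750 and chr3:87976751-87978750 were at 0.851-fold and 0.876-fold on day 4, 0.730-fold and 0.861-fold on day 7, and 0.835-fold and 1.05-fold on day 14. The border zone-higher calls of Mef2d were found on day 4 alone, at chr3:87931751-87932750 with 37.2 border zone and 21 sham tags (1.77-fold) and at chr3:87925251-87926250 with 65.0 and 37 (1.76-fold, 1.15 to 2.73). Neither place was listed on a later day. The other Mef2d loci, none of them differential, were chr3:87918251-87919250 on day 4, at 1.66-fold (1.02 to 2.72), and chr3:87984751-87986250, at 0.815-fold on day 4 and 0.718-fold on day 14.

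The loci of Mef2c went in both directions. The most tags over the days lay at chr13:83661751-83665750, where border zone and sham had 408 and 523 tags on day 4, 730 and 673 on day 7, with 1097 and 991 on day 14. The border zone was lower on day 4, at 0.779-fold (0.683 to 0.889), and at 1.08-fold (0.967 to 1.22) on day 7 and 1.11-fold (1.01 to 1.22) on day 14. The day 4 value includes a sham-higher region of 1000 bp at its edge, with 19.7 border zone and 36 sham tags. On day 14 the region with the most tags was chr13:83710751-83714250, with 1307 border zone and 1200 sham tags, a fold of 1.09 (0.999 to 1.19), and this locus was at 0.961-fold and 0.969-fold on days 4 and 7.

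A single MEF2 locus was listed as differential in the same direction on more than 1 day. At Mef2c, chr13:83735251-83736750 had 164 border zone and 185 sham tags on day 4, 35.0 and 70 on day 7, with 117 and 232 on day 14. It was sham-higher on the later days, with the border zone at 0.502-fold (0.387 to 0.647) on day 14 and nearly the same fold on day 7. On day 4 the fold was 0.886 (0.714 to 1.10), but over the whole 1500 bp, whereas the regions of the later days were its last 1000 bp. The centre of this locus lies 72.25 kb from that of the gene's locus with the most tags. The neighbour chr13:83742751-83744250, at 79.75 kb, went the other way. It had 284 border zone and 261 sham tags on day 4, 260 and 213 on day 7, with 625 and 563 on day 14, folds of 1.09 (0.917 to 1.29), 1.22 (0.999 to 1.49) and 1.11 (0.979 to 1.26). It was the MEF2 locus that was higher on every day, with intervals that held 1 on each.

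Also at Mef2c, chr13:83704251-83706250 had 390 border zone and 448 sham tags on day 4, 193 and 302 on day 7, with 661 and 933 on day 14. Its folds of 0.871, 0.638 (0.519 to 0.781) and 0.708 (0.633 to 0.792) were below 1 on every day without a call in the lists. Near it, chr13:83707751-83708750 was at 0.603-fold, 0.625-fold and 0.840-fold, and chr13:83670751-83671750 at 0.898-fold, 0.768-fold and 0.839-fold. At chr13:83656751-83658250, listed on days 7 and 14, border zone and sham had 338 and 230 tags on day 7 (1.47-fold, 1.22 to 1.77) and 542 and 505 on day 14 (1.07-fold). The border zone-higher call of Mef2c, chr13:83748251-83749250 on day 7, had 83.5 border zone and 38 sham tags (2.20-fold, 1.44 to 3.38) and appeared on no other day. The other 7 loci of Mef2c listed on a single day were not different, with folds of 0.731 at chr13:83620751-83621750 on day 4 to 1.64 at chr13:83791251-83792250 on day 7. At chr13:83724251-83725250 and chr13:83854251-83855250 the border zone was at 0.885-fold and 0.859-fold on day 4 and at 1.10-fold and 1.07-fold on day 14. Their intervals held 1 on each of these days. Loci of Mef2c other than those with the most tags, the largest fold or a repeated call were singled out after their values were seen, and so were such loci of Mef2a and Mef2d.

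**Figure D3:**
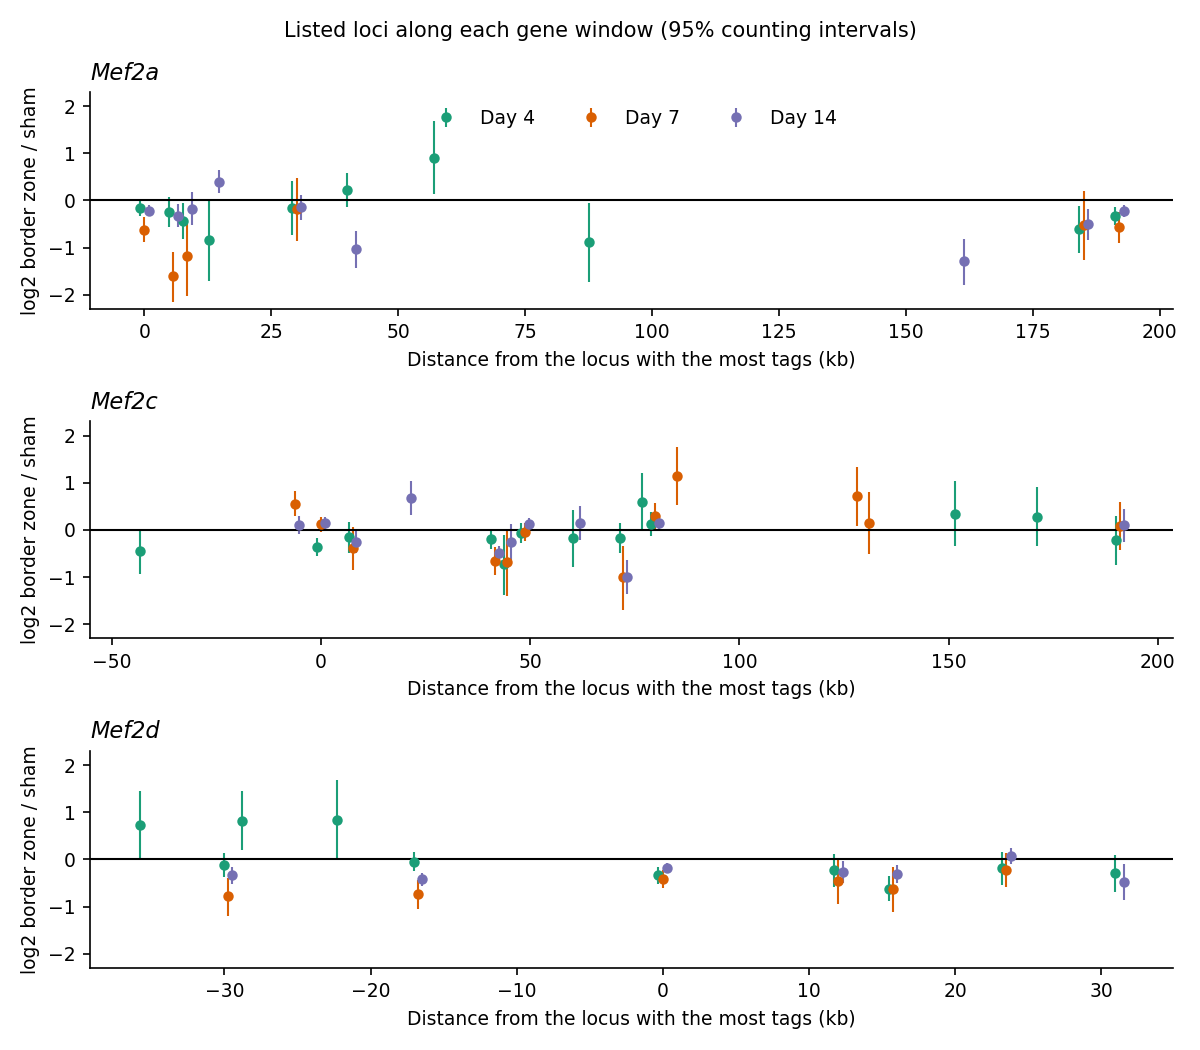
Border zone over sham tags as listed, as a log2 ratio, for each locus on each day it was listed, against its distance in kb from the locus with the most tags of the gene, toward higher positions of the chromosome; points are shifted slightly by day, and bars are exact 95% intervals that cover counting error only. Loci of Mef2a and Mef2d listed on all days lie at or below 0 but for 1 value of Mef2d on day 14, whereas loci of Mef2c lie on both sides.

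A test of border zone against sham over all 3 days used edgeR's quasi-likelihood test on whole tags, with day as a block and Benjamini-Hochberg adjustment over all 19733 loci listed on every day. None of the 20 MEF2 loci passed an adjusted p of 0.05, where 9.97% of all loci did, 7.64% higher in the border zone and 2.33% lower. At an unadjusted p under 0.05 there were 2 of 20 in edgeR, 1 in each direction. DESeq2 and limma also called 0 after adjustment. Their loci at an unadjusted p under 0.05 were 1 in DESeq2, higher in the border zone, and 7 in limma, all lower. The share of all loci at an unadjusted p under 0.05 was not counted. The unadjusted counts of MEF2 loci therefore cannot be set against loci in general. In limma 18 of the 20 loci were lower in the border zone, and in edgeR and DESeq2 14. The share of all loci that were lower was not counted in these fits. limma, which took the listed values without further scaling, split the calls of all loci into 722 higher and 1563 lower, against 1507 and 460 in edgeR. Its median over all loci was -0.23 on the log2 scale and that of edgeR -0.01, and the MEF2 loci had medians of -0.35 and -0.14.

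In the edgeR fit 5 of 6 loci were lower in the border zone at Mef2a, with a median log2 fold change of -0.23, 5 of 6 at Mef2d, with -0.14, and 4 of 8 at Mef2c, with 0.06. The median over all 19733 loci was -0.01 in this fit. At Mef2a the smallest p belonged to chr7:74379251-74381750, with a log2 fold change of -0.44 (SE 0.21, adjusted p = 0.191 in edgeR). At Mef2c it belonged to chr13:83742751-83744250, with 0.39 (SE 0.18, adjusted p = 0.152 in edgeR), and chr13:83735251-83736750 followed with -0.48 (SE 0.22, adjusted p = 0.167 in edgeR). At Mef2d it belonged to chr3:87969251-87970750, with -0.32 (SE 0.18, adjusted p = 0.264 in edgeR). No single MEF2 locus thus passed this test after adjustment over all loci. With day as a block, the test sets a difference against the spread of border zone over sham across the days. The fit leaves 2 residual degrees of freedom for a locus, and edgeR estimates the spread with the help of the other loci. Without day 4 edgeR called 2 of the 20, chr7:74379251-74381750 with a log2 fold change of -0.60 (adjusted p = 0.0342) and chr13:83735251-83736750 with -0.77 (adjusted p = 0.0256), both lower in the border zone. These are 10% of the 20, close to the 10.9% of all loci that were called lower without day 4, when 15.6% were called higher. A locus of Mef2a, chr7:74404251-74405250, was lower in the border zone in listed values on all days but had a log2 fold change of 0.04 in edgeR, which scales the libraries on all loci.

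**Figure D4:**
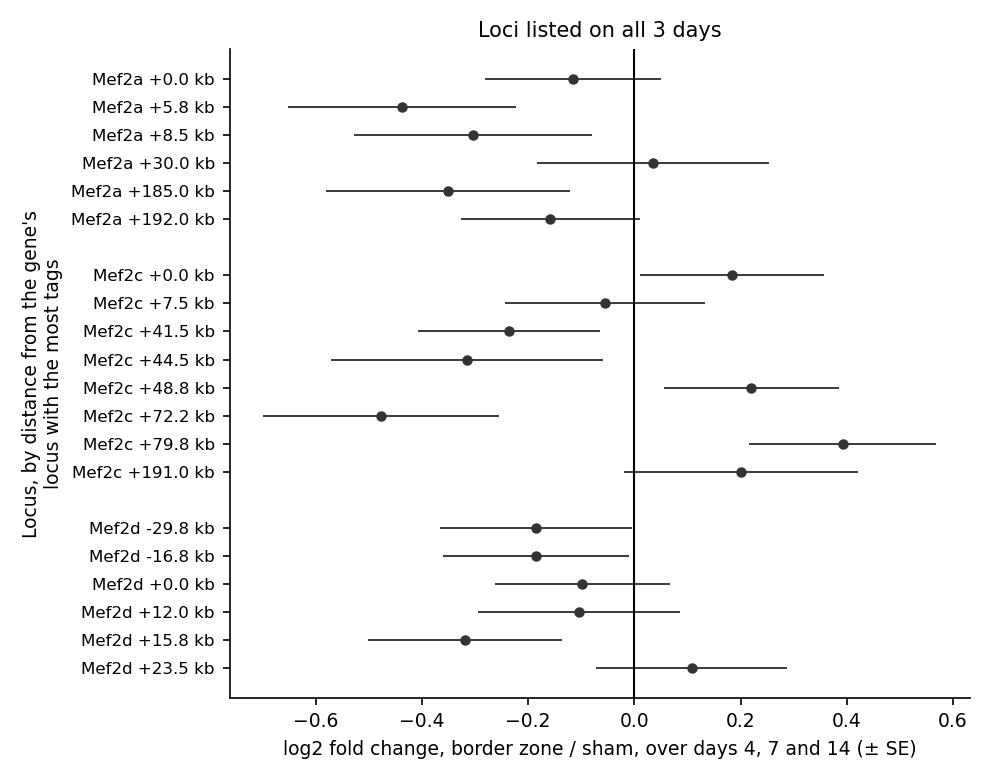
Log2 fold change of border zone over sham over days 4, 7 and 14 for the 20 MEF2 loci listed on all days, from edgeR with day as a block; points are the fitted values, bars 1 SE, and loci are named by gene and distance in kb from the gene's locus with the most tags. Values run from -0.44 to 0.04 at Mef2a, -0.48 to 0.39 at Mef2c and -0.32 to 0.11 at Mef2d, and none passed an adjusted p of 0.05.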

How the data were processed

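The 6 ATAC-seq libraries were used; the 30 RNA-seq samples are not analysed here. The submitters' processing notes name mm9 throughout, Bowtie2 (day 4), BWA (days 7 and 14) and bedtools. No source used here gives their versions, the region caller, or how duplicates and the transposase offset were treated. Per the file headers, 9 lists give sham tags and border zone tags. Sham tags are deposited as whole counts. Border zone tags are whole counts in the non-differential list of day 4. Elsewhere they are a deposited signal, read here as counts scaled by a few factors per day. The factors were read from the values: 97.4% of 85106 scaled values were whole multiples of 1.03 or 1.10 (day 4), 1.17 or 1.35 (day 7) and 1.18 or 1.37 (day 14), within 0.001%. The other 2173 were brought back to tags approximately, and none of these is a MEF2 region. In the non-differential list of day 4 border zone tags are unscaled, so values of 1 gene on that day mix scales. Listed regions held 5472628, 2740263 and 10298404 border zone tags and 5907384, 3858892 and 13936013 sham tags on days 4, 7 and 14. These sums are not library depths, which are unknown here.

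Folds are ratios of listed values. Intervals are exact Clopper-Pearson 95% intervals of whole tags, and they cover counting error only. The tags carry no molecular identifiers and the treatment of duplicates is unknown here, so even this error may be larger than given. Regions of different days sharing at least 1 bp were joined into loci, with tags summed. No test was made within a day, since each condition had 1 library on it. The test over days used edgeR 4.0.16 (TMM, quasi-likelihood) on all loci listed on every day, with limma 3.58.1 on log2(listed value + 1) and DESeq2 1.42.0 as alternatives, in R 4.3.3. Libraries were paired by day, as the labels describe the same genotype and isolation for both conditions of a day. The animals of the conditions were not the same. The p-values of this test rest on the spread of border zone over sham across the days among 6 libraries. This spread may be technical, and it also holds changes with time and the different mice and isolation of day 4. A difference present on a single day adds to it. Animals within a day were not replicated. The SE is the log2 fold change divided by the square root of F. The genes, windows and lists were chosen with earlier results of these data known. Loci were named by most tags, largest fold per day and direction, calls repeated over days and smallest p. Columns of unmapped samples used: 0. Coordinates are mm9, counted from 1. Python 3.11.15 and scipy 1.17.1 were used.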

Additional observations from a re-analysis of the deposited data

Results flagged for a closer look

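At 7 MEF2 loci, of 20 listed on all 3 days and 5 listed on 2, the border zone was below sham on 1 day and above it on another. The summed tags of Mef2c did the same. Of the 20 loci listed on all days 4 were mixed in this way. Of all 19733 such loci 44.4% were lower on every day and 12% higher on every day. A change of side is thus not particular to the MEF2 loci. Differences between days were not tested, and days 4 and 14 also differ in mice and isolation. The regions listed for a locus can also differ in extent between days, as at both Mef2a loci below. The Mef2a locus at 74387751 to 74389250 of chromosome 7 was at 0.559-fold on day 4, where it was sham-higher, and at 1.32-fold on day 14. The Mef2c locus at 83661751 to 83665750 of chromosome 13, which has the most tags of that gene, was at 0.779-fold on day 4 and 1.11-fold on day 14. At these places the counting intervals of both days leave out 1 in the listed values, but not with 1 median factor per day. The Mef2a locus was then at 0.577-fold, with an upper limit of 1.02, on day 4 and 1.29-fold on day 14. The Mef2c locus was at 0.83-fold on day 4 and 1.08-fold, with a lower limit of 0.984, on day 14. The Mef2a locus at 74414751 to 74416250 was at 0.49-fold on day 14, a sham-higher call, and at 1.17-fold on day 4. At Mef2c, 83710751 to 83714250 was at 0.961-fold on day 4 and 1.09-fold on day 14, and with 1 median factor per day at 1.03-fold and 1.06-fold, so that the opposite directions depend on the scaling. The Mef2c locus at 83724251 to 83725250 was at 0.885-fold and 1.1-fold, and that at 83854251 to 83855250 at 0.859-fold and 1.07-fold, on days 4 and 14. The Mef2d locus at 87976751 to 87978750 of chromosome 3 was at 0.861-fold on day 7 and 1.05-fold on day 14. The summed tags of Mef2c were at 0.903-fold on day 4 and 1.04-fold on day 7.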

How the results depend on the processing

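The summed folds of Mef2a and Mef2d stayed below 1 under all 5 alternatives on every day. Scaled by the summed listed tags of each day, the folds of day 4 moved past their counting intervals to 0.920 (Mef2a), 0.974 (Mef2c) and 0.937 (Mef2d). With 1 median factor per day they moved to 0.963 and 1.14 at Mef2c on days 4 and 7 and to 0.777 at Mef2d on day 7. Without differential regions Mef2a was at 0.706 on day 7, and as the median over regions Mef2c was at 1.07 and Mef2d at 0.805 on day 14. The counts of differential regions were small and moved more. At a fold of at least 2 there remained 0 at Mef2a on day 4, 0, 1 and 0 at Mef2c on days 4, 7 and 14, and 0 at Mef2d on day 7, and at Mef2d on day 4 a single sham-higher region (1), where border zone-higher ones had prevailed. With a larger value of at least 2 times the day's minimum there were 0 at Mef2a on days 4 and 14, 0 at Mef2c on all days, and again 1 at Mef2d on day 4, sham-higher. With 1 median factor Mef2d had 0 on day 7, and with scaling by summed listed tags 1. Both scalings change the calls by construction, and both filters keep fewer regions.

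In the test over days, leaving out 1 day gave 0 to 2 called MEF2 loci, and every other alternative gave 0. Without the replicate block of days edgeR called 0 MEF2 loci and 0 of all loci. Over all 19733 loci it called 1507 higher and 460 lower, without day 4 3079 and 2146, without day 7 909 and 115, without day 14 546 and 21, and DESeq2 called 1021 and 117; the cause was not tested. With 27 to 36 MEF2 regions a day and 1 library per condition, counting intervals limit regions of few tags, and the spread between animals was not measured.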
